A study of Rattus norvegicus and Mus musculus with 14 samples.

Results

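Rat embryonic cortical neuron cultures stimulated with NMDA in the presence of nitroarginine were compared with cultures given NMDA alone, to ask what blocking nitric oxide synthase does to transcript levels during stimulation. The members are 4 of the 14 arrays of the series, chosen by their titles: the nitroarginine and the NMDA array of experiment 1 and of experiment 2 in the NOS set, paired by experiment number. All 1152 cDNA probes of the array were used, of which 384 carry 1 gene symbol (342 genes). Each group has n = 2 arrays, and both groups received NMDA, so the difference between them is the inhibitor. The same experiments each hold 1 array of cultures treated with CSS, the control of the labels, which is given as background. A further 2 pairs are set beside the comparison: cultures of the MEK set with NMDA and the MEK inhibitor PD98059 against NMDA alone (n = 2 arrays each), and cortex of 1 adult nNOS knockout mouse against cortex of 1 wild-type littermate, both of the c57bl strain. The labels give no dose, duration or culture age, and they leave unsaid if the 2 experiments used independent cultures. The p-values therefore reflect array-to-array spread only, possibly of technical origin.

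NMDA opens a class of glutamate receptor that admits calcium. In neurons the scaffold PSD-95 holds neuronal nitric oxide synthase (nNOS) next to that receptor, so that calcium entering through it, bound to calmodulin, switches the enzyme on. The enzyme makes nitric oxide from arginine, and the gas acts mainly by stimulating guanylyl cyclase to produce cyclic GMP and by modifying cysteines of proteins. Nitroarginine is an arginine analog that occupies the enzyme's substrate site and blocks all nitric oxide synthases, whereas the mouse knockout removes the neuronal form.

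Values are taken as Z-scores, that is, each array centred near 0 and scaled by its own spread, though how they were made is not described. A difference of 1 Z unit is then about 1 SD over the probes of an array. No fold change can be derived, and any change shared by all probes would be lost. The level of 1 probe cannot be set against that of another. The 3 arrays of experiment 1 correlated with each other at r = 0.989 to 0.991 over 1152 probes, and those of experiment 2 at 0.894 to 0.937, but arrays of different experiments at only 0.454 to 0.617. Experiment 2 therefore stands apart, and most differences of single genes below are given for each experiment. List medians, effects of processing and ranges over probes are for the mean of the 2 experiments, and need not hold in each. The arrays of experiment 2 also had unequal spread, with an SD of 0.857 in the control, 0.991 under NMDA and 0.942 under nitroarginine. In experiment 1 the SD was 0.999, 0.997 and 0.998 in the same order. Because the cultures were measured in bulk, fewer cells of a type and less RNA per cell cannot be told apart.

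No probe passed the test for nitroarginine against NMDA. With experiment as a block, limma called 0 of 1152 probes (0%), the lowest adjusted p was 0.988, and 41 probes fell under 0.05 before adjustment, fewer than the 57.6 that chance gives. Of these 41, 27 (2.34%) were higher and 14 (1.22%) lower. The genes below are therefore described by their values, and none is said to have changed. An exact test on 1 gene could not decide either. Flipping the signs of the 2 pairs gives no p below 0.5 on both sides. An exact permutation test that ignores the pairing, 2 arrays against 2, gives none below 0.333.

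The size of the difference depended on the experiment. Over all probes, nitroarginine minus NMDA had an SD of 0.131 Z units in experiment 1 and 0.348 in experiment 2, which is 2.65 times as wide. The 2 experiments correlated at r = 0.194 (Spearman 0.218) over 1152 probes, which share their arrays and are not independent replicates. Under nitroarginine 340 probes (29.5%) were higher in both experiments, 362 (31.4%) were lower in both and 450 had opposite signs. After quantile normalization 314 were higher and 306 lower in both. Median centring gave 248 higher and 449 lower, so the balance of the directions depends on the centring.

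**Figure D1:**
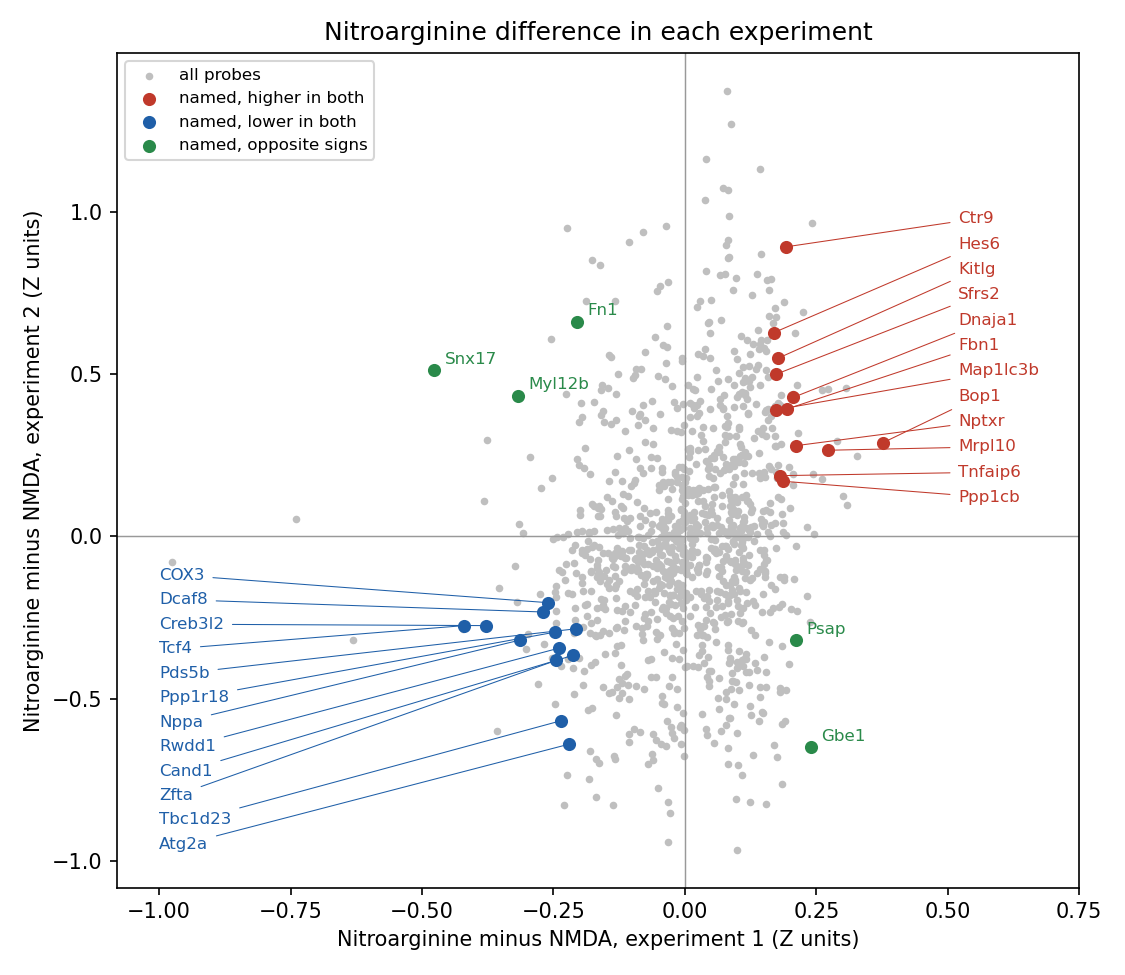
Nitroarginine minus NMDA in experiment 1 (x axis, Z units) and experiment 2 (y axis, Z units), 1 point per probe, with the 12 named probes highest in both experiments in red, the 12 lowest in both in blue and the 5 with the clearest opposite signs in green. The cloud is wider along y (SD 0.348) than along x (SD 0.131), and Ctr9 and Atg2a stand out mainly through experiment 2.

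Named probes were ranked by the smaller of their 2 differences among those with the same sign in both experiments. That rule uses the compared values themselves, so the agreement of the 2 experiments in these genes is how they were chosen and no support for them. Among named probes 111 of 384 (28.9%) were higher in both experiments and 113 (29.4%) lower. The first 12 each way are described. The thresholds this sets are small: the last probe taken among the higher ones, Hes6, had 0.17 in experiment 1 and the first left out, Son, also had 0.17. Among the lower ones COX3 was last, with -0.20 in experiment 2, and Prrc2b was next, with -0.20 in experiment 1. The SE of these 24 differences ran from 0.177 to 0.232 Z units, and their adjusted p from 0.988 to 0.993 in limma. The 12 lower probes were mostly bright, with 11 above the median level of all probes, against 5 of the 12 higher ones. The part of brightness in their difference was not tested.

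The gene nearest to the nitric oxide pathway among them was Nppa, which encodes atrial natriuretic peptide, a hormone whose receptors make cyclic GMP, the messenger that nitric oxide also raises. Its Z-score was 0.87 under NMDA and 0.56 under nitroarginine in experiment 1, and 1.14 and 0.83 in experiment 2. The control arrays stood at 0.90 and 1.04, so both nitroarginine arrays were the lowest of their experiment. The difference was -0.31 and -0.32 in the 2 experiments (mean -0.32, SE 0.18), the most even among the lower genes. Npr3, the receptor that clears natriuretic peptides, and Dlg4, which encodes PSD-95, were looked at for their known link to the pathway, after the values were available. Npr3 was lower by -0.21 in experiment 1 and by -0.03 in experiment 2. Dlg4 was at -0.02 and -0.29. None of the 41 genes listed for nitric oxide and cyclic GMP signalling is named on the array. That list includes the synthases, the guanylyl cyclases, the cyclic GMP kinases and the phosphodiesterases. Since 762 probes carry no symbol, the enzyme that was inhibited could not be followed by name, and its absence from the array is not shown.

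Of the lower genes, Tcf4, Creb3l2, Zfta and Pds5b act in transcription or on chromatin, as do Ctr9 and Hes6 of the higher ones. Tcf4, a helix-loop-helix transcription factor of neuronal development, had a Z-score of 1.46 under NMDA and 1.04 under nitroarginine in experiment 1, and of 1.80 and 1.53 in experiment 2. With controls at 1.37 and 1.61, the nitroarginine array was again the lowest of the 3 in each experiment. Its mean difference was -0.35 (SE 0.18). Creb3l2, a membrane-bound transcription factor of the endoplasmic reticulum, went from 1.12 to 0.75 and from 1.81 to 1.54, a mean difference of -0.33 (SE 0.18). In experiment 2 its control, at 1.55, was level with nitroarginine, whereas in experiment 1 the control, at 1.07, was level with NMDA. Zfta, a zinc finger gene, was at -0.24 and -0.38 in the 2 experiments. Pds5b, a regulator of the cohesin complex that holds sister chromatids together, was at -0.21 and -0.28.

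Ctr9, a subunit of the Paf1 complex that accompanies RNA polymerase II, had a Z-score of -1.24 under NMDA and -1.05 under nitroarginine in experiment 1. In experiment 2 it had -1.45 under NMDA, -0.56 under nitroarginine and -0.15 in the control, so its mean difference of 0.54 (SE 0.23) rested on that experiment. Hes6, a helix-loop-helix regulator of neuronal differentiation, went from 1.14 to 1.31 and from 0.17 to 0.80. Its nitroarginine arrays were above the control (1.18 and 0.39) as well as above NMDA, with a mean difference of 0.40 (SE 0.19).

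Of the higher genes, Bop1, Mrpl10 and Sfrs2 act in ribosomes or RNA processing. Bop1, needed to mature the large ribosomal subunit, had a Z-score of -1.72 under NMDA and -1.34 under nitroarginine in experiment 1, and of -0.74 and -0.45 in experiment 2. Both nitroarginine arrays were above their control (-1.58 and -0.67), and the mean difference was 0.33 (SE 0.18). Mrpl10, a protein of the large subunit of the mitochondrial ribosome, went from -0.18 to 0.09 and from -1.76 to -1.496, a difference of 0.27 in each experiment. Its controls were at -0.02 and -1.94, lower than the nitroarginine array in both. Sfrs2, an SR protein of the spliceosome, was higher by 0.17 and 0.50. In experiment 2 it had -0.57 in the control, -1.31 under NMDA and -0.81 under nitroarginine.

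**Figure D2:**
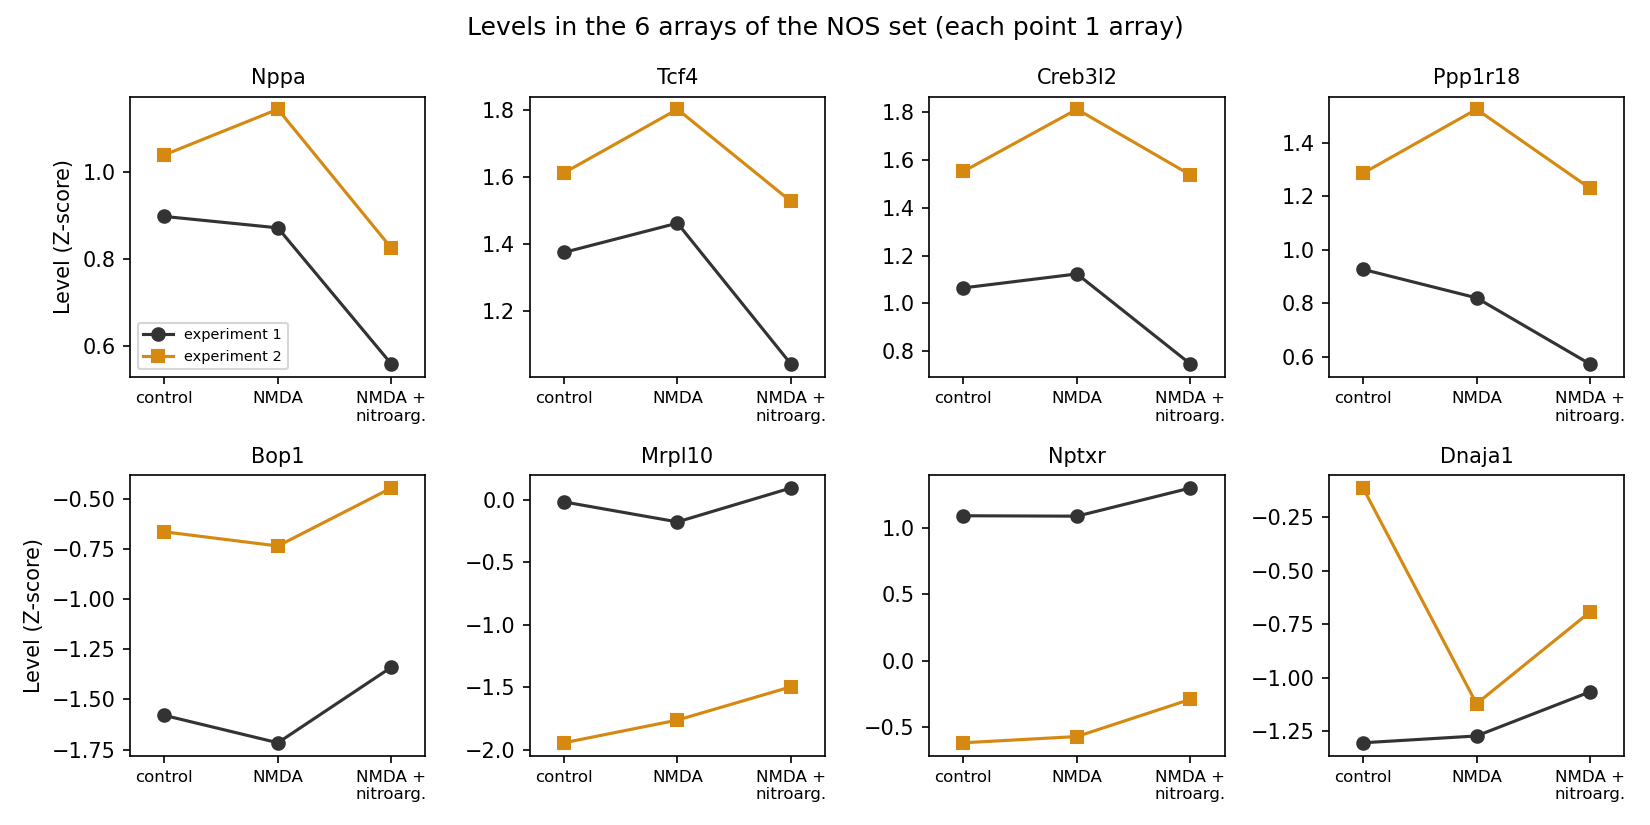
Z-scores (y axis, a scale of its own in each panel) of the 4 lower and the 4 higher genes ranked first, in control, NMDA and NMDA with nitroarginine arrays (x axis), each point 1 array and each line 1 experiment. In the upper row nitroarginine is the lowest point of every line, and in the lower row Bop1, Mrpl10 and Nptxr have it as the highest, while the Dnaja1 control of experiment 2 (-0.11) lies above its nitroarginine array (-0.69).

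Secreted or cell surface proteins are encoded by Nptxr, Kitlg, Fbn1 and Tnfaip6 of the higher genes and by Nppa of the lower ones. Nptxr, the neuronal pentraxin receptor, which takes part in clustering AMPA receptors at synapses, had a Z-score of 1.09 under NMDA and 1.30 under nitroarginine in experiment 1, and of -0.57 and -0.29 in experiment 2. Kitlg, the ligand of the receptor Kit, went from 0.42 to 0.59 and from -1.35 to -0.80. Both genes were higher with nitroarginine than in control in both experiments (controls 1.09 and -0.62 for Nptxr, 0.46 and -1.44 for Kitlg). Fbn1, which encodes fibrillin of the extracellular matrix, was higher by 0.19 and 0.39. Tnfaip6, a hyaluronan-binding secreted protein, was higher by 0.18 and 0.19. It is the gene with the second smallest mean difference of the 12, at 0.18 (SE 0.18), about the size of its error.

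Genes of protein turnover and membrane traffic were among both the higher and the lower ones. Atg2a, which moves lipid to the growing autophagosome, had a Z-score of 0.70 under NMDA and 0.48 under nitroarginine in experiment 1. In experiment 2 it had 1.16 under NMDA and 0.52 under nitroarginine, close to the control at 0.41. Its mean difference of -0.43 (SE 0.20) was the largest of the 12 lower genes and came mainly from experiment 2. Map1lc3b, the LC3B protein that coats autophagosome membranes, was in the opposite direction, higher by 0.17 and 0.39. Tbc1d23, which tethers vesicles at the Golgi, was lower by -0.23 and -0.57.

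Cand1, which exchanges the substrate adaptors of cullin ubiquitin ligases, had 3 probes. The probe ranked among the 12 was at -0.21 and -0.37, another at -0.17 and -0.31, and the third at -0.15 and 0.02. Thus 2 of its 3 probes were lower in both experiments. Dcaf8, a substrate adaptor of such a ligase, was at -0.27 and -0.23. Dnaja1, a cochaperone of Hsc70, was higher by 0.21 and 0.43, with an experiment 2 control at -0.11 against -1.12 under NMDA and -0.69 under nitroarginine.

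Protein phosphatase 1 was represented by a catalytic and a regulatory subunit. Ppp1cb, a catalytic subunit, was higher by 0.19 and 0.17 (mean 0.18, SE 0.18). Ppp1r18, a regulatory subunit that binds actin, was lower by -0.25 and -0.30 on 1 probe, while its other probe was at 0.02 and 0.03. With a running median along the probe order removed, the first probe's mean difference was 0.0027 in place of -0.27. COX3, a cytochrome c oxidase subunit encoded by mitochondrial DNA, was lower by -0.26 and -0.20 on the probe among the 12. Its other 6 probes had mean differences of -0.23 to 0.03, and 2 of them were lower in both experiments (-0.13 and -0.34 on 1, -0.01 and -0.18 on the other). The last of the 12 lower genes, Rwdd1, was at -0.24 and -0.34.

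The size of the difference in the 24 genes depended on the processing. With the running median along the probe order removed, 9 of the 24 moved by over 1.5 times: besides Ppp1r18, Rwdd1 went from -0.29 to -0.072, Dcaf8 from -0.25 to -0.091, Dnaja1 from 0.32 to 0.097, Tbc1d23 from -0.40 to -0.17, Nptxr from 0.25 to 0.13, Atg2a from -0.43 to -0.26, Zfta from -0.31 to -0.20 and Sfrs2 from 0.34 to 0.21. Quantile normalization moved 6 as far, with the COX3 probe going from -0.23 to -0.073, and rank scores moved 11, with that probe at -0.046. Leaving out a single array moved 14 of the 24 by over 1.5 times, and the NMDA array of experiment 2 alone moved 11. Without it Dnaja1 was at 0.0018, Ctr9 at 0.074, Sfrs2 at 0.079, Map1lc3b at 0.070 and Atg2a at -0.14, and without the NMDA array of experiment 1 they were at 0.63, 1.01, 0.59, 0.49 and -0.72.

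Some named genes went clearly opposite ways in the 2 experiments. Snx17, a sorting nexin that recycles receptors from endosomes, was at -0.48 in experiment 1 and 0.51 in experiment 2. Myl12b, a regulatory light chain of non-muscle myosin, was at -0.32 and 0.43. Gbe1, the glycogen branching enzyme, was at 0.24 and -0.65, and Psap, the precursor of the saposins of the lysosome, at 0.21 and -0.32. Fn1, which encodes fibronectin, was at -0.20 and 0.66 on 1 probe and at 0.08 and -0.04 on the other. The smaller of the 2 differences in Snx17 (0.48) exceeds that of every one of the 24 genes above, the largest of which is 0.31 in Nppa.

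Ranking by p brings forward genes whose difference lay mostly in experiment 2. Of 384 named probes, 13 had an unadjusted p under 0.05, all with adjusted p = 0.988 in limma. Urm1, a ubiquitin-like modifier of transfer RNAs, led them with 0.08 in experiment 1 and 1.07 in experiment 2. Stmn2, a neuronal regulator of microtubules in growth cones, was at -0.17 and -0.80. In experiment 2 its Z-score was 0.52 under NMDA, -0.28 under nitroarginine and -0.18 in the control. Stx7, a SNARE of late endosomes, was at -0.16 and -0.70, with 0.57 under NMDA, -0.13 under nitroarginine and -0.01 in the control of experiment 2. Dmxl2, a regulator of the vesicle proton pump, was at -0.18 and -0.75. All 13 had the larger difference in experiment 2.

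**Figure D3:**
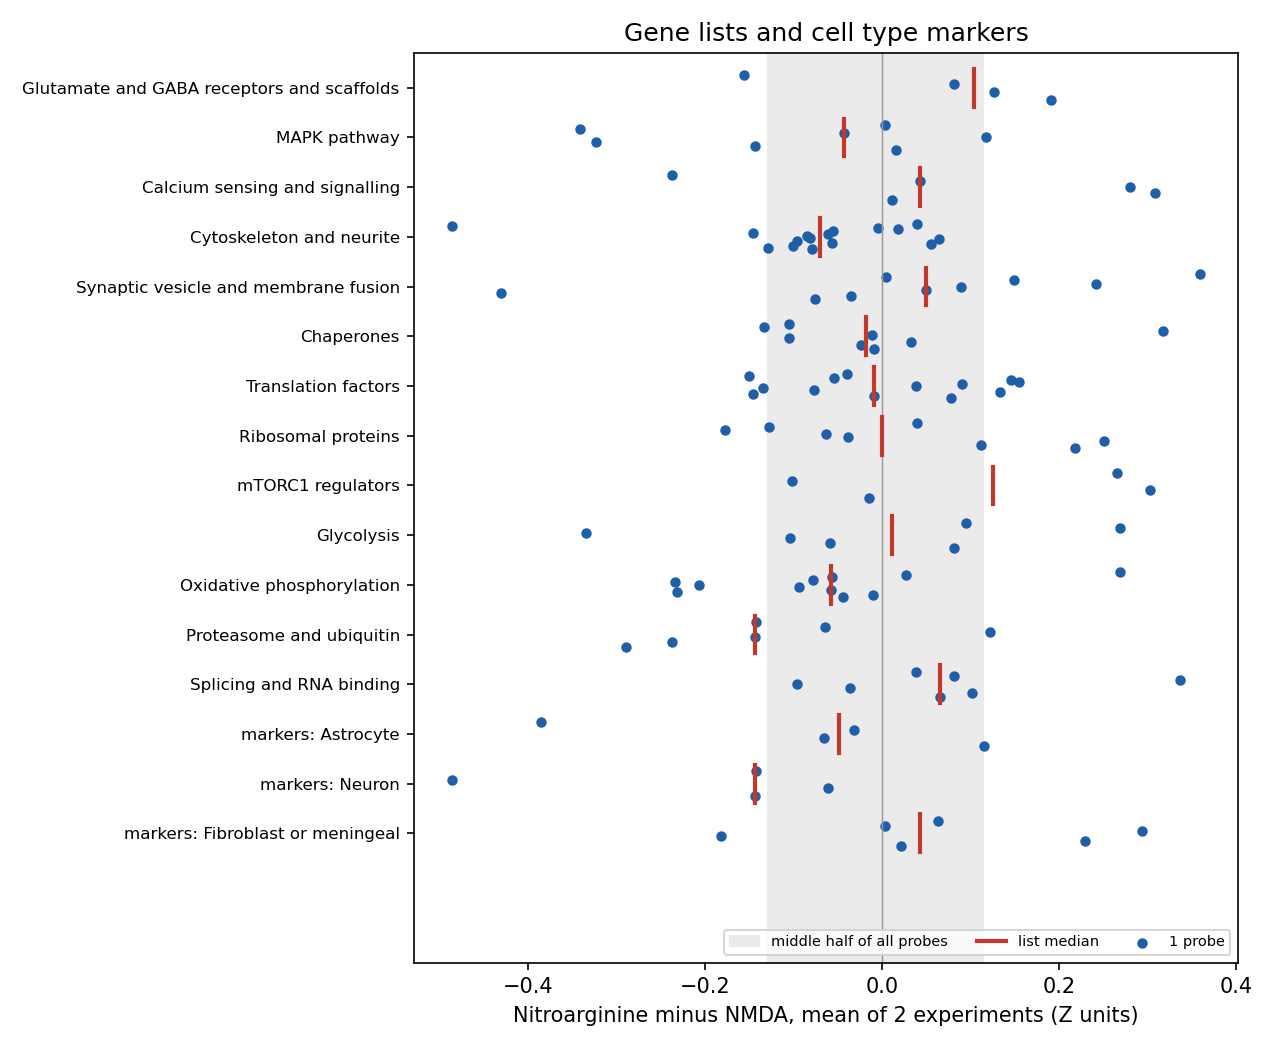
Nitroarginine minus NMDA (x axis, Z units, mean of the 2 experiments) for every probe of the gene lists and cell type marker lists with at least 3 probes (y axis), with the list median as a red line and the interquartile range of all probes shaded. List medians lie between -0.14 and 0.13, while single probes reach -0.49 (Stmn2) and 0.36 (Ap2m1).

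In no gene list did a member pass the test, and the medians lay near the median of all probes, which was -0.01 Z units. The lists furthest below were proteasome and ubiquitin genes, with a median of -0.14 over 6 probes of 3 genes, 3 of them lower and 1 higher in both experiments. Besides Cand1, its members were Uchl1, a neuronal ubiquitin hydrolase, at -0.18 and -0.11 on 1 probe and 0.18 and -0.47 on the other, and Psmc3, an ATPase of the proteasome, at 0.12 and 0.13. Cytoskeletal and neurite genes had a median of -0.07, with 7 of 16 probes lower in both experiments and 0 higher in both, against 31.4% and 29.5% of all probes. These 16 probes are of 12 genes, and 5 are probes of Actb, which encodes beta-actin, with mean differences between -0.13 and 0.06. Oxidative phosphorylation genes had 5 of 11 probes lower and 1 higher in both (median -0.06), and 7 of the 11 are COX3. The exception was Atp5mc1, a subunit of the ATP synthase ring, at 0.15 and 0.38.

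Lists on the higher side were small, and their counts stand beside 29.5% of all probes higher and 31.4% lower in both experiments. Splicing and RNA binding genes had 5 of 7 probes higher in both experiments and 0 lower (median 0.07). Besides Sfrs2 these were both probes of Pqbp1, Srsf5 and Ddx5, at mean differences of 0.04 to 0.10. Vesicle and membrane fusion genes had 4 of 9 higher and 1 lower in both (median 0.05). The clathrin adaptor subunits Ap2m1, at 0.14 and 0.58, and Ap2b1, at 0.15 and 0.34, were the largest, and Eps15, which works with that adaptor, was at 0.18 and 0.12. Regulators of mTORC1, the growth-controlling kinase complex, had 2 of 4 higher and 1 lower (median 0.13), from 0.10 and 0.50 in Tsc2 to -0.10 and -0.10 in Rraga.

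The remaining lists were divided, beside the same shares of all probes (29.5% higher and 31.4% lower in both experiments). Ribosomal proteins had 4 of 8 probes higher and 2 lower in both experiments, translation factors 4 of 13 each way and chaperones 1 of 8 each way, and these 3 had medians of -0.02 to -0.0001. The 5 Hspa8 probes, which make up most of the chaperone list, had mean differences of -0.13 to -0.01. Glutamate and GABA receptor and scaffold genes had 2 of 4 higher and 1 lower in both (median 0.10), with Gabra2, a GABA-A receptor subunit, at 0.11 and 0.28. Calcium signalling genes had 2 of 5 higher and 0 lower (median 0.04), with Hpca, a neuronal calcium sensor, at 0.09 and 0.47. MAPK genes had 1 of 7 higher and 2 lower (median -0.04), with Etv5, an ERK-responsive transcription factor, at -0.04 and -0.65, and Rap1gap, which switches off the GTPase Rap1, at -0.01 and -0.64. Glycolytic genes had 1 of 6 higher and 2 lower (median 0.01). Mef2d, the only activity-regulated transcription factor listed and named, was at -0.13 and 0.25. No probe carried the name of a listed gene of oxidative stress or cell death.

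In experiment 2 the difference also varied with brightness and along the order in which the probes are listed. It averaged 0.09 Z units in the 384 dimmest probes and -0.06 in the 384 brightest, against 0.01 and -0.04 in experiment 1. Along the probe order, means of 96 probes ran from -0.21 to 0.24 in experiment 2 and from -0.04 to 0.04 in experiment 1. The lists just described differ in brightness, with median levels of 0.97 for oxidative phosphorylation, 0.45 for cytoskeletal and -0.42 for vesicle genes, and the part of brightness in their medians was not tested.

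Few markers of cell types were named on this array. Neuronal markers were lower in both experiments in 3 of 4 probes (median -0.14), against 31.4% of all probes. They are Stmn2, Nefl, a neurofilament subunit at -0.07 and -0.05, and 1 of 2 probes of Uchl1. Summed over the 4 probes, the level was 1.02 and 1.37 under NMDA against 0.79 and -0.06 under nitroarginine. The fall of that sum in experiment 2 came mostly from Stmn2 (-0.80) and from the other Uchl1 probe (-0.47), which was higher by 0.18 in experiment 1. Astrocyte markers (Gfap, Glul and Sparc) were lower in both in 1 of 4 probes, and the sum was -0.20 and 0.15 under NMDA against -0.24 and -0.55 under nitroarginine. The 2 probes of Gfap, the astrocyte filament gene, disagreed in experiment 2, at 0.39 and -0.70. Csf1r, the only microglial marker named, was at -0.16 and -0.29. Markers of fibroblast or meningeal cells had 1 of 6 probes higher in both, Fbn1. Hes6, the only gene of the progenitor list that was named, was higher by 0.17 and 0.63 (unadjusted p = 0.0483, adjusted p = 0.988 in limma). As a regulator of neuronal differentiation it does not separate progenitors from neurons here. No marker of oligodendrocytes, endothelium or red cells was named. The part of cell makeup in the differences was not tested.

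Against control, cultures with NMDA and nitroarginine had 0 of 1152 probes called by limma (0%), with 48 (4.17%) at an unadjusted p under 0.05 and a lowest adjusted p of 0.926. This comparison shares the nitroarginine arrays with the one above, and NMDA against control shares the NMDA arrays, so values are only set side by side. Among the 12 higher genes the nitroarginine array was above control in experiment 1 in 12 and in experiment 2 in 7. Among the 12 lower genes it was below control in 10 and in 7. The nitroarginine value enters both this difference and the choice of the genes, so these counts partly follow from the choice. The share over all probes is not given here. In Ctr9 NMDA minus control was -0.14 and -1.31, and nitroarginine minus control was 0.05 and -0.42. In Atg2a NMDA minus control was 0.02 and 0.75, and nitroarginine minus control was -0.20 and 0.11. In these 2 genes the NMDA array of experiment 2 was farther from control than the nitroarginine array, and in experiment 1 it was not for Atg2a.

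The MEK inhibitor gave a second inhibitor comparison with no array in common. Over all probes PD98059 minus NMDA had an SD of 0.155 and 0.104 Z units in its 2 experiments. These correlated with each other at r = -0.11, with the same sign in 36.9% of the 1152 probes. The PD98059 difference thus did not repeat, and a correlation with its mean cannot show if the 2 inhibitors are alike or unlike. That correlation was r = -0.06 for the mean nitroarginine difference over 1152 probes, 0.01 for experiment 1 and -0.07 for experiment 2. The difference between the 2 inhibitor effects, tested as an interaction with each experiment as a block, was called for 0 of 1152 probes (0%) in limma, with a lowest adjusted p of 0.747 and 45 probes (3.91%) at an unadjusted p under 0.05. No gene can therefore be called particular to nitroarginine. Dnaja1 had the opposite sign under PD98059 in both experiments, at -0.40 and -0.18, and its interaction was 0.61 (SE 0.15, adjusted p = 0.747). Nppa was at 0.02 and -0.002 under PD98059 (interaction -0.33) and Tcf4 at -0.01 and 0.12 (interaction -0.41). Of the 24 genes, 3 of the 12 higher and 4 of the 12 lower had the nitroarginine sign in both PD98059 experiments. The share over all probes is not given here, so these counts are not read as a result about the 24 genes.

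**Figure D4:**
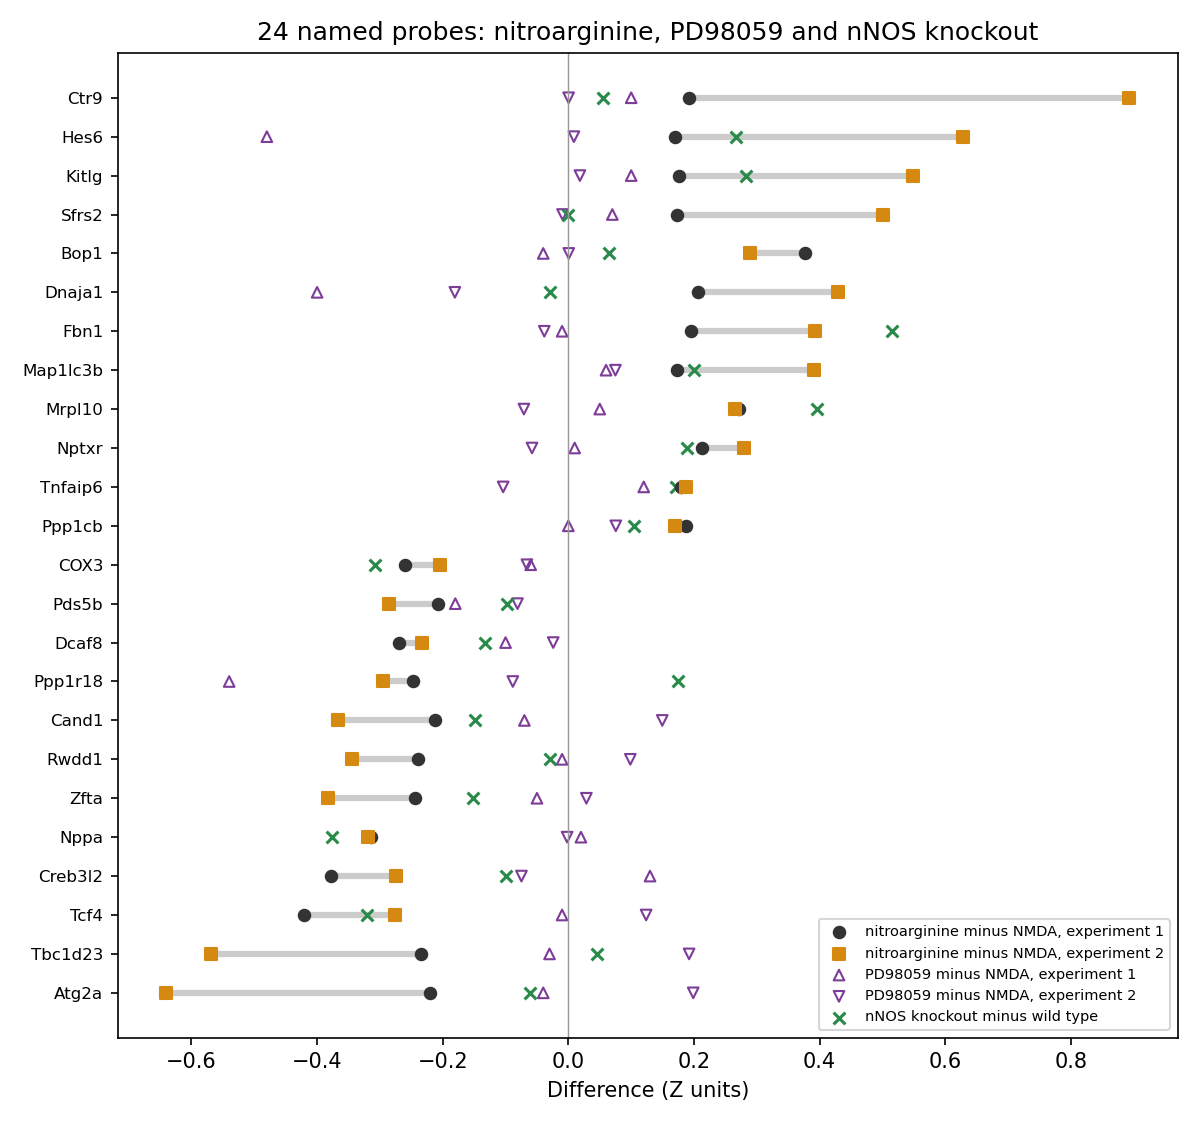
Differences in Z units (x axis) for the 24 genes (y axis, in order of the mean nitroarginine difference): nitroarginine minus NMDA in each experiment, PD98059 minus NMDA in each experiment, and nNOS knockout minus wild type from 1 array each. PD98059 values scatter around 0 from -0.54 to 0.20, while the knockout has the nitroarginine sign in 20 of 24 genes.

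Loss of nNOS in mouse cortex was set beside the drug, with 1 array per genotype and no test. Probes higher with nitroarginine than with NMDA in experiment 1 were mostly also higher in the knockout than in the wild type: the 2 differences correlated at r = 0.50 (Spearman 0.56) over 1152 probes, with the same sign in 74.4% of them. In experiment 2 the correlation was 0.15 (Spearman 0.20), with the same sign in 60.3%. These comparisons share no array, but they differ in species, tissue and age, and their points share the array design and its probe properties. In experiment 1 the correlation was 0.40, 0.57 and 0.52 within the 384 dimmest, the 384 middle and the 384 brightest probes, 0.46 once the trend over probe order was taken out and 0.48 once that over brightness was. In experiment 2 it was 0.10, 0.20 and 0.23 within the same groups of probes. There it was 0.24 without the trend over probe order and 0.096 without that over brightness.

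The same likeness was measured for the other differences between arrays of 1 experiment. It was -0.01 and -0.03 for PD98059 minus NMDA, whose own 2 experiments correlated at r = -0.11. It was -0.04 and -0.15 for NMDA minus control in the NOS set. For nitroarginine minus control it was 0.40 in experiment 1 and -0.04 in experiment 2. In the MEK set, where no nitric oxide synthase inhibitor was given, NMDA minus control in experiment 2 also had 0.36. The control of MEK experiment 1 was left out, because its column is misaligned and stands 1 row from its probes. The knockout array was also closer than the wild-type array to the mean of the other MEK set arrays (r = 0.80 against 0.74), as was the nitroarginine array of experiment 1 compared with its NMDA array (0.89 against 0.87). In experiment 2 nitroarginine was the less close, at 0.41 against 0.44. What part of the likeness any of these shares was not tested.

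Of the 340 probes higher with nitroarginine in both experiments, 268 were higher in the knockout (78.8%), and of the 362 lower in both, 283 were lower (78.2%). Among all 1152 probes 64.5% had the same sign in the knockout as in the mean nitroarginine difference, and among the 450 with opposite signs in the 2 experiments 42.7% did. In those 450 the mean takes the sign of the larger difference, and experiment 2 was the wider (SD 0.348 against 0.131). Experiment 1 alone had the knockout sign in 74.4% of all probes and experiment 2 in 60.3%. The contrast of these shares follows in part from such sorting and averaging, and is no support for a likeness of repeated differences. The 24 named genes, with 10 of 12 each way, lay near the share of probes with the same sign in both experiments. Nppa was lower by -0.38 in the knockout, Tcf4 by -0.32 and the COX3 probe by -0.31, each about as far as with the drug. Fbn1 was higher by 0.52, Mrpl10 by 0.40, Kitlg by 0.28 and Hes6 by 0.27. The exceptions were Ppp1r18 at 0.17 and Tbc1d23 at 0.05, lower with the drug, and Dnaja1 at -0.03 and Sfrs2 at -0.0004, higher with it.

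**Figure D5:**
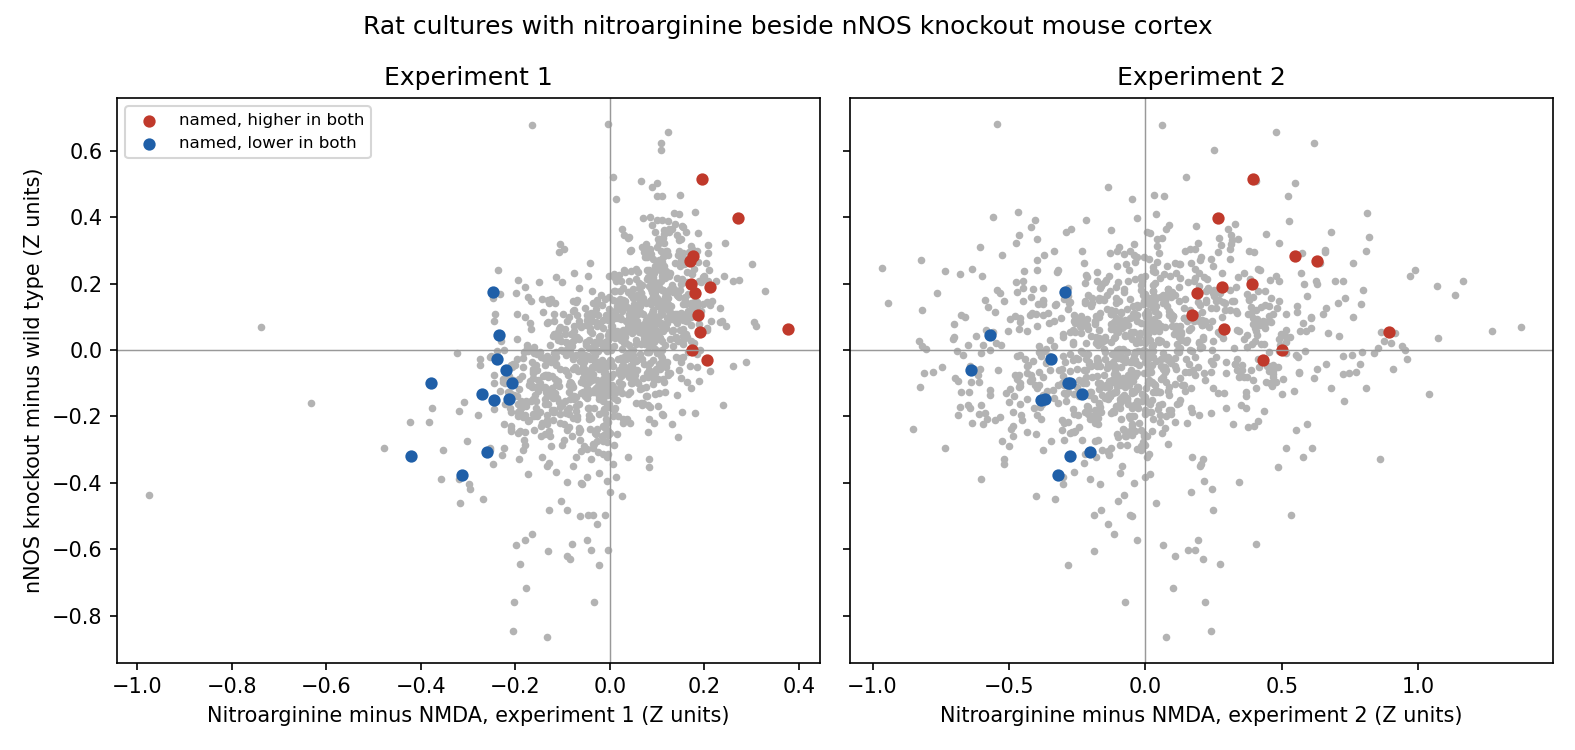
nNOS knockout minus wild type (y axis, Z units, 1 array each) against nitroarginine minus NMDA (x axis, Z units) in experiment 1 (left) and experiment 2 (right), 1 point per probe, with the 12 higher named genes in red and the 12 lower in blue. The cloud slopes upward in experiment 1 (r = 0.50) and hardly in experiment 2 (r = 0.15).

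Under 1 other setting of the test, limma called probes: with a variance trend and robust moderation 9 of 1152 passed, 8 lower and 1 higher, none with a gene name. The 8 lower ones were bright, with mean levels of 1.41 to 2.81. Probe 122, 1 of the 2 with the lowest adjusted p (0.00551 in limma), went from 1.76 under NMDA to 1.40 under nitroarginine in experiment 1 and from 1.9997 to 1.40 in experiment 2, and was also lower in the knockout, by -0.39. With that moderation after quantile normalization limma called 0 probes and after removal of the running median 0. After each array was rescaled to SD 1 it called 2, of which 1 was shared with the 9 and the other was Urm1.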

How the data were processed

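Transcript levels were measured on cDNA arrays. The authors deposited scores, taken here as Z-scores per array: the NOS columns centre near 0 with an SD of 0.857 to 0.999. The scanner, background correction and scale before that step are not given in the sources used here. Column medians in the NOS set were 0.06, -0.02 and -0.0008 in experiment 1 (control, NMDA, nitroarginine) and -0.08, -0.15 and -0.07 in experiment 2. Direction was taken as that of brightness.

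Groups and experiment numbers came from the titles. The number pairs the arrays: arrays with one number deviated together from their groups (r = 0.874 to 0.930). The model, with treatment and experiment as terms, was run by limma 3.58.1 (R 4.3.3, statmod 1.5.0) on the 6 NOS set arrays. It left 2 residual degrees of freedom and used moderated two-sided tests with Benjamini-Hochberg adjustment over 1152 probes at 0.05. The inhibitor difference used 8 arrays. Figures were drawn with matplotlib 3.10.9 (Python 3.11.15, pandas 2.3.3). The fit was tested on simulated data with independent normal noise and added differences larger than the mean differences of the named genes. Its power for differences of their size was not tested.

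Names came from the platform annotation, which is old: 384 probes had 1 symbol, 6 several and 762 none, and 362 of the 384 matched the rat RefSeq table. Named genes were the probes past the threshold (0), filled to 12 each way by the smaller absolute difference of 2 with the same sign, plus 5 with opposite signs and other probes of these genes. Lists are described by counts and medians. The members, lists and rules were chosen with earlier results of these data known. Alternatives were no block, other sets of arrays, moderation, scaling, normalization, order trend, a filter on dim probes, a Z ratio and left-out arrays. Cyclic loess and trend moderation after rescaling, quantile normalization or detrending were added after seeing the data.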

Additional observations from a re-analysis of the deposited data

How the results depend on the processing

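The number of arrays limits precision: 2 pairs with a median SE of 0.186 Z units. Nitroarginine against NMDA stayed at 0 calls in limma without the replicate block (0 probes at an unadjusted p under 0.05) and with only the 4 arrays (31). It also did with 12 rat arrays (0), which include the misaligned MEK control, and with the 11 rat arrays without that control (74). The same held for rescaling to SD 1 (30), quantile normalization (11), median centring (36), rank scores (19), order trend removed (43), cyclic loess (31) and dim probes left out (41). Chance gives 57.6 over 1152 probes, which the 74 with 11 rat arrays exceeds, as does the 78 with trend and robust moderation. The fit without dim probes tested only those at or above the median level, so its 41 cannot be set against 57.6. The number of calls was 9 with trend and robust moderation and 2 with that after rescaling to SD 1. By Z ratio past 1.5 in both experiments it was 8 (3 higher and 5 lower, with 4 more of opposite signs). With 1 array left out it ran from 0 to 3, the 3 without NMDA replicate 1. Nitroarginine against control had 0 calls in every limma fit, all left-out arrays included, and 3 by Z ratio. The inhibitor difference had 0 calls, but 128 without either the NMDA or the nitroarginine array of NOS experiment 1, which leaves experiment 2 alone for the NOS set, so its range was 0 to 128. Without either of those arrays of NOS experiment 1, the remaining NOS arrays are fitted exactly, so the error comes from the MEK arrays alone. Over probes, PD98059 minus NMDA had an SD of 0.155 and 0.104, against 0.348 for nitroarginine minus NMDA in NOS experiment 2. Those calls therefore measure no spread among NOS arrays, and no conclusion is drawn from them. Dropping the replicate block changed no call: that fit gave 0 in all 3 comparisons. Among the 29 named genes, these values turned sign: Snx17 with median centring (-0.030) and order trend removed (-0.069), Gbe1 with rank scores (0.021) and order trend removed (0.077), Ppp1r18 (0.0027) and Psap (0.090) with order trend removed (the same with trend and robust moderation), and Myl12b with cyclic loess (-0.0078). In the inhibitor difference COX3 turned with quantile normalization (0.070) and rank scores (0.15), and Ppp1r18 with median centring (-0.00012). The causes were not tested. With arrays left out, 14 of the 24 genes chosen for the same sign moved by over 1.5 times; their sign with an experiment left out is fixed by that choice. The other 5 ran from -0.48 to 0.51 (Snx17), -0.32 to 0.43 (Myl12b), -0.65 to 0.24 (Gbe1), -0.32 to 0.21 (Psap) and -0.20 to 0.66 (Fn1), and the Ppp1r18 inhibitor difference from -0.18 to 0.27.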
